A study of Mus musculus with 7 samples.

Results

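A set of 9 genes of sebaceous lipid and lipid droplets was followed in mouse epidermis, namely Awat1, Far2, Pnpla5, Plin2, Plin4, Cd36, Fabp5, Aadacl4 and Ces4a. They were taken by symbol from a table of 7091 genes, and all 9 had a row and enough reads to be fitted. They had been picked because they were higher in mutant than in control epidermis and because several of them were also high in 1 control, so both patterns are given here as values and neither is tested on these genes. The mutants, called KA mice, have the genotype K14-CreERT;ABCA12-cKO: a conditional allele of Abca12, a keratinocyte lipid transporter, and a tamoxifen-dependent recombinase under the keratin 14 promoter, which is active in basal keratinocytes. Controls have the genotype ABCA12-c/c, the conditional allele without CreERT. Mice of both groups were 8 weeks old when they were injected with tamoxifen in corn oil on 3 days, at 1 mg for each 40 g of body weight, and epidermis was taken from telogen (resting phase) skin 2 weeks later. The comparison therefore joins loss of the gene with the presence of the recombinase. Of the 4 KA libraries, KA 1 and KA 2 came from males and the other two from females. Among the 3 control libraries only control 2 was male. Every library has its own animal number. Reads in the listed genes ranged from 9590718 to 12761458 per library, and since the table holds only genes that the authors called changed, these totals are not sequencing depths. The targeted gene was not analysed here, so the genotype labels were taken as given.

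Sebaceous glands sit beside the hair follicle and fill with lipid until the whole cell breaks up and is released as sebum, a mixture rich in wax esters and triglycerides. A fatty acid is taken up or made in the cell, carried by binding proteins, reduced to a fatty alcohol and joined to another fatty acid to give a wax ester, or stored as triglyceride in droplets coated by perilipins. In the gland the nuclear receptor PPAR gamma, which pairs with RXR on direct repeats of a hexamer, is a known regulator of this program. Several of the proteins work outside the gland as well: Fabp5 is made by keratinocytes throughout the epidermis, and Cd36 by macrophages and small blood vessels.

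The promoters of Cd36, Plin4, Ces4a and Aadacl4 are shown because these 4 genes shared the widest spread among controls. Each sequence is the 250 bases before the RefSeq start site on GRCm38.p6, written 5′ to 3′ along the gene's strand. For Cd36 this start site lies inside the listed gene interval, which begins on the minus strand at 17888801. The bases before that outer start were not searched. Capitals mark a match on either strand to any of the motifs searched: the nuclear receptor half-site AGGTCA, the GC box GGGCGG, the CCAAT box CCAAT, the E-box CACGTG, the TATA box TATAAA and the AP-1 site TGANTCA.
Cd36 (minus strand, chr5:17835897-17836146): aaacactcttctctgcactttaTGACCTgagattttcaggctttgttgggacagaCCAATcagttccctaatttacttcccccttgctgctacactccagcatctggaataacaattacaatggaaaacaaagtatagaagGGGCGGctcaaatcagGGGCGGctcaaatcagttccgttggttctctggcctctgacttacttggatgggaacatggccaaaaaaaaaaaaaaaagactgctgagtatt
Plin4 (minus strand, chr17:56109783-56110032): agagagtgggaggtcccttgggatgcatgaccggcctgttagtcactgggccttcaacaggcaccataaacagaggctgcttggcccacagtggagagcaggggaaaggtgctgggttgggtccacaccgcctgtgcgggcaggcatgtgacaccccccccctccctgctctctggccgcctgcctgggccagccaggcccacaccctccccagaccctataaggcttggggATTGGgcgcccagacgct
Ces4a (plus strand, chr8:105131550-105131799): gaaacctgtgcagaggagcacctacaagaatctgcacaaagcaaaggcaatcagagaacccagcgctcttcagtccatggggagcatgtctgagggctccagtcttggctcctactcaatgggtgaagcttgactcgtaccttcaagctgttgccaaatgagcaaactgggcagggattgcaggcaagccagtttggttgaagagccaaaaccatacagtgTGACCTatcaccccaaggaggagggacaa
Aadacl4 (plus strand, chr4:144613457-144613706): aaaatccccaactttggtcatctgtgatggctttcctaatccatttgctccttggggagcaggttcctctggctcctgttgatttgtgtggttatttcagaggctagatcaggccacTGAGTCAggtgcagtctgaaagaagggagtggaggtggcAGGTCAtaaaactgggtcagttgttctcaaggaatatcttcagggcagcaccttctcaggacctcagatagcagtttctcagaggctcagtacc
The half-site began 228 bases before the start in Cd36, 94 bases before it in Aadacl4 and 29 bases before it in Ces4a, while the Plin4 window held a CCAAT box alone. RefSeq windows were found for 8 of the 9 genes. The half-site stood in 4 of these 8 (the 3 above and Plin2), beside 14% of 32851 promoter windows of the same length. No window of the 8 held 2 half-sites with 1 base between them, an arrangement present in 0.0335% of all windows. A GC box stood in 3 of the 8 (32.7% of all windows), a CCAAT box in 4 (33.8%), an E-box in 1 (6.02%), an AP-1 site in 1 (6.75%) and a TATA box in none (12.4%). These matches are letters in a window and were not tied to the binding of any factor.

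Wax synthesis was represented by Far2 and Awat1, both higher in every KA library than in any control. Far2, which reduces fatty acyl-CoA to fatty alcohol (ENSMUSG00000030303, chromosome 6, 148047259 to 148182758, plus strand), had 1202, 3009 and 978 normalised reads in controls 1, 2 and 3 and 4710, 5889, 4857 and 4528 in KA 1, 2, 3 and 4. Normalised reads are the authors' counts divided by 1 size factor per library. Control 2 was thus far above the other controls, yet below the lowest KA library. The mean was 1730 ± 1114 in controls (SD, n = 3) and 4996 ± 610 in KA (SD, n = 4), so the log2 fold change was 1.53 (SE 0.36). Far2 overlaps the antisense genes Far2os1 and Far2os2 and the gene Ergic2 on the other strand, and with the strand setting of the counting unknown, reads of these genes cannot be told apart. Awat1, an acyl-CoA wax alcohol acyltransferase that makes the ester itself (ENSMUSG00000015665, chromosome X, 100572251 to 100578205, plus strand), had 167, 449 and 188 normalised reads in the controls and 1451, 1412, 1390 and 1098 in KA 1 to KA 4. The 4 KA values lay close together and the lowest stood 2.44-fold above control 2. The mean was 268 ± 157 in controls (SD, n = 3) and 1338 ± 162 in KA (SD, n = 4), so the log2 fold change was 2.32 (SE 0.32). Without control 2 the log2 fold changes became 2.20 for Far2 and 2.91 for Awat1.

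The perilipins Plin2 and Plin4, proteins that coat lipid droplets, differed widely in level. Plin2, the coat protein found in most cell types (ENSMUSG00000028494, chromosome 4, 86648386 to 86670060, minus strand), had 1561, 2557 and 1598 normalised reads in the controls and 4131, 5215, 3955 and 3555 in KA 1 to KA 4. It showed the smallest difference of the 9 genes, with means of 1905 ± 564 in controls (SD, n = 3) and 4214 ± 710 in KA (SD, n = 4). Its log2 fold change was 1.15 (SE 0.20), and 1.42 without control 2. Plin4 (ENSMUSG00000002831, chromosome 17, 56100591 to 56109803, minus strand), a perilipin best known from fat tissue, had 16.1, 111 and 21.7 normalised reads in the controls and 169, 213, 181 and 323 in KA 1 to KA 4. KA 4 was the highest and control 2 was 5.90-fold above the mean of controls 1 and 3, which held 17 and 27 counts, while the KA mean was 1.99-fold above control 2. The mean of Plin4 was 49.7 ± 53.5 in controls (SD, n = 3) and 221 ± 70.1 in KA (SD, n = 4), so the log2 fold change was 2.18 (SE 0.61), and 3.54 without control 2. Plin4 overlaps Hdgfl2 on the other strand, with the same limit as for Far2.

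Pnpla5, a patatin-like lipase that acts on triglyceride (ENSMUSG00000018868, chromosome 15, 84112356 to 84123175, minus strand), had 341, 1007 and 326 normalised reads in the controls and 1650, 1983, 1857 and 1436 in KA 1 to KA 4. Its profile followed that of Far2, with a single high control and KA libraries 1.43-fold or more above it. The mean was 558 ± 389 in controls (SD, n = 3) and 1731 ± 240 in KA (SD, n = 4), so the log2 fold change was 1.64 (SE 0.39), and 2.38 without control 2.

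Fatty acid uptake and carriage were represented by Cd36 and Fabp5, the members with the widest and one of the narrowest spreads among controls. Cd36, a membrane receptor for long-chain fatty acids (ENSMUSG00000002944, chromosome 5, 17781690 to 17888801, minus strand), had 9.47, 113 and 12.8 normalised reads in the controls, from 10, 110 and 16 counts, and 449, 543, 368 and 306 in KA 1 to KA 4. Both female controls held few reads, while the male control was within 2.70-fold of the lowest KA library. The mean was 45.2 ± 59.1 in controls (SD, n = 3) and 417 ± 103 in KA (SD, n = 4), so the log2 fold change was 3.24 (SE 0.75), and 5.20 without control 2. Fabp5, the epidermal fatty acid binding protein (ENSMUSG00000027533, chromosome 3, 10012548 to 10016607, plus strand), had 3937, 8036 and 4287 normalised reads in the controls and 49710, 33560, 28080 and 29740 in KA 1 to KA 4. KA 1 was highest, and the lowest KA library stood 3.49-fold above control 2, the widest separation of the 9 genes. The mean was 5420 ± 2272 in controls (SD, n = 3) and 35270 ± 9895 in KA (SD, n = 4), so the log2 fold change was 2.70 (SE 0.30), and 3.10 without control 2.

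The hydrolases were Aadacl4 and Ces4a. Aadacl4, of the arylacetamide deacetylase family (ENSMUSG00000070609, chromosome 4, 144613707 to 144623398, plus strand), had 69.1, 359 and 92.2 normalised reads in the controls and 819, 666, 789 and 905 in KA 1 to KA 4. Its KA libraries kept a narrow range, with the male KA 2 the lowest. The mean was 173 ± 161 in controls (SD, n = 3) and 795 ± 99.1 in KA (SD, n = 4), so the log2 fold change was 2.21 (SE 0.52), and 3.29 without control 2. Ces4a, a carboxylesterase (ENSMUSG00000060560, chromosome 8, 105131800 to 105150109, plus strand), had 92.8, 425 and 73.8 normalised reads in the controls and 1874, 1797, 1345 and 1499 in KA 1 to KA 4. Both female controls were low, and the lowest KA library was 3.17-fold above control 2. The mean was 197 ± 197 in controls (SD, n = 3) and 1629 ± 249 in KA (SD, n = 4), so the log2 fold change was 3.06 (SE 0.58), and 4.29 without control 2.

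**Figure D1:**
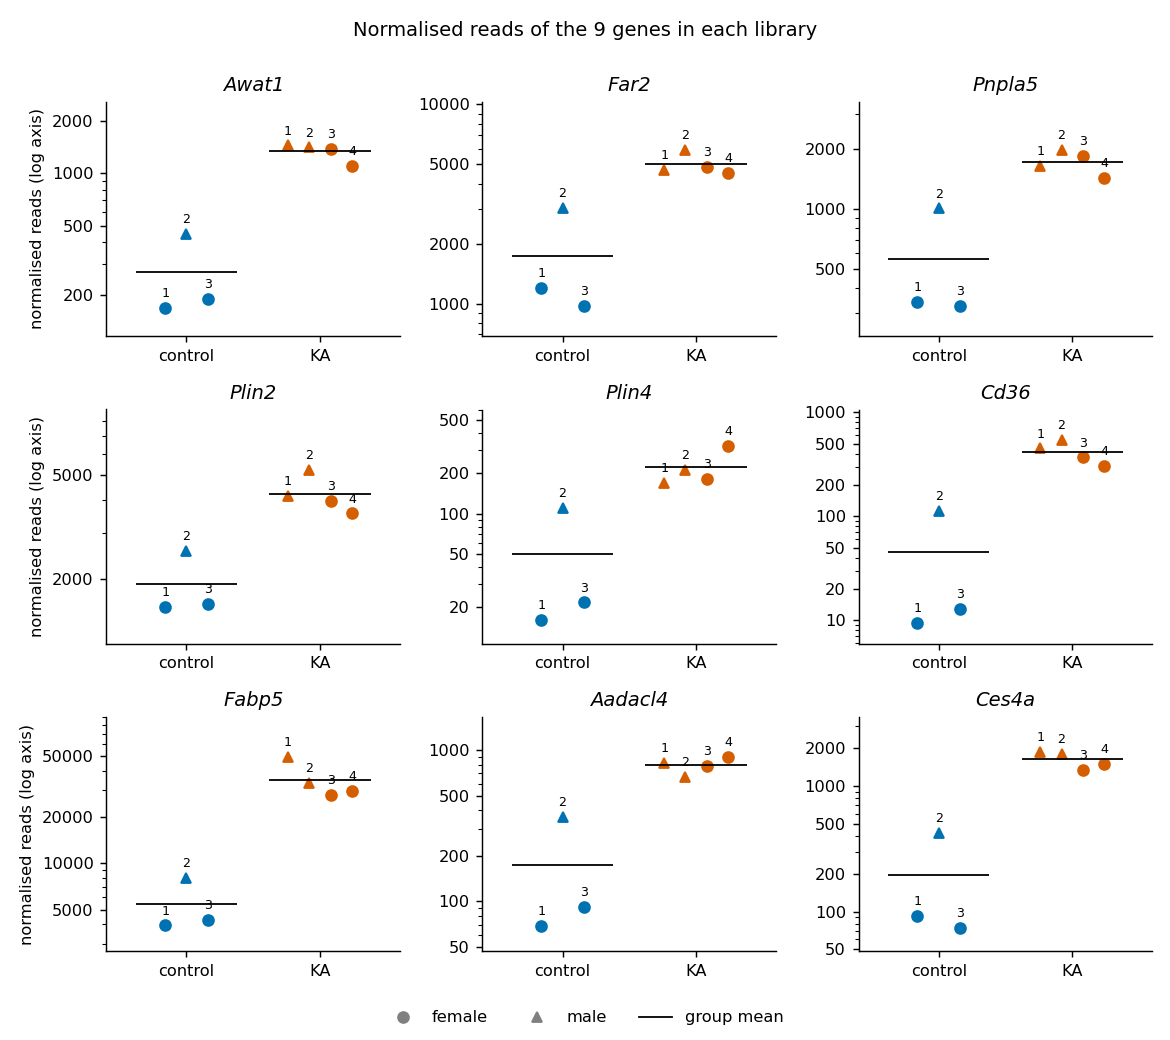
Normalised reads (log axis) of each of the 9 genes in 3 control and 4 KA libraries, with sample numbers beside the points, triangles for males, circles for females and a line at the group mean. In every panel control 2 is the highest control and all 4 KA libraries lie above it, from 1.39-fold (Plin2) to 3.49-fold (Fabp5) for the lowest KA library.

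For all 9 genes the KA values did not overlap the control values and were higher, as was so for 49.1% of the 6749 listed genes tested. The lowest KA library was at least 2-fold above the highest control in 4 of the 9 (Awat1, Cd36, Fabp5 and Ces4a), beside 8.18% of the genes tested. The median log2 fold change was 2.21 over the 9 genes and 0.36 over all genes tested. As the 9 were picked for being higher, these counts describe the choice. By length the order of the means in KA, in normalised reads per kilobase, was Fabp5 at 9888 ± 2774 (SD, n = 4), Plin2 at 1200 ± 202, Awat1 at 962 ± 116, Pnpla5 at 797 ± 111, Far2 at 683 ± 83.5, Ces4a at 670 ± 102, Aadacl4 at 649 ± 81, Cd36 at 116 ± 28.6 and Plin4 at 38.3 ± 12.1. Far2, Ces4a and Aadacl4 differed from each other by less than their SDs, Plin2, Awat1 and Pnpla5 were each between 1 and 2 SDs above the next gene, and Fabp5 at the top and Cd36 and Plin4 at the bottom were further from theirs. In control means per kilobase Awat1 (193) was below Pnpla5 (257) and Far2 (237), and Ces4a (81) was below Aadacl4 (142).

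Among the 3 controls the 9 genes shared 1 pattern: control 2, the male, was the highest in all 9. Control 2 was highest in 26.9% of the 5828 listed genes with a mean of at least 50 normalised reads. The ratio of control 2 to the mean of controls 1 and 3 was 10.2 for Cd36, 5.90 for Plin4, 5.10 for Ces4a, 4.45 for Aadacl4, 3.02 for Pnpla5, 2.76 for Far2, 2.53 for Awat1, 1.95 for Fabp5 and 1.62 for Plin2. It reached 2 in 7 of the 9, beside 0.961% of those listed genes (56 genes), whose median ratio was 0.993. Cd36, Plin4 and Ces4a held ranks 1, 2 and 3 of the 5828 by this ratio and Aadacl4 rank 6, while Fabp5 had rank 58 and Plin2 rank 99. The limit of 50 normalised reads was set on the mean of all 7 libraries. Cd36 and Plin4, with control means of 45.2 and 49.7, passed it only through their level in KA. Genes as low in controls without a rise in KA are left out, so no conclusion is drawn from these ranks or from the 0.961%. Controls 1 and 3 differed little, with a ratio of control 1 to control 3 between 0.738 (Cd36) and 1.26 (Ces4a). The coefficient of variation was larger among controls (29.6% to 131%) than among KA libraries (12.1% to 31.7%) in each of the 9 genes. The same libraries were used when the genes were picked, so this is a description, and a single male control means that sex and that animal cannot be told apart. In bulk epidermis, more gland cells, more RNA per gland cell and RNA from other cells that make these transcripts cannot be told apart either.

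Within KA no library was high or low throughout. KA 2 was the highest in 4 genes (Far2, Pnpla5, Plin2 and Cd36), KA 1 in 3 (Awat1, Fabp5 and Ces4a) and KA 4 in 2 (Plin4 and Aadacl4). KA 4 was the lowest in 5 genes. The male KA mean was above the female KA mean in 7 of the 9, from 1.10-fold for Pnpla5 to 1.47-fold for Cd36. It was below the female mean for Plin4 (0.759) and Aadacl4 (0.877). The KA males had animal numbers 4855 and 4854, in the lower run of numbers, and the KA females 4876 and 4877, in the upper run. Sex and run of animal numbers therefore cannot be told apart within KA.

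The level in KA relative to control 2 alone shows how far each gene went past the highest control. The mean of the 4 KA libraries was 4.39-fold that of control 2 for Fabp5, 3.84-fold for Ces4a, 3.67-fold for Cd36 and 2.98-fold for Awat1. It was 2.22-fold for Aadacl4, 1.99-fold for Plin4, 1.72-fold for Pnpla5, 1.66-fold for Far2 and 1.65-fold for Plin2. Fabp5 and Plin2 thus varied least among controls but stood at opposite ends of this order. Control 2 was at least 2-fold above the mean of the other controls in 56 listed genes with a mean of at least 50 normalised reads over the 7 libraries. Of these, 45 (80.4%) had all KA libraries above all controls, among them all 7 members in the 56. Over all 6749 genes tested the share was 49.1%. The table was selected on KA against control, so a gene with uneven controls is listed mainly where KA lies far from them. No conclusion is therefore drawn from the 80.4%. Of the 11 others among the 56, Awat2 and Pparg are genes of the gland, named here after their values were seen. Awat2, another wax synthase of the gland, had 191, 376 and 136 normalised reads in the controls and 386, 475, 454 and 300 in KA 1 to KA 4. Pparg, the gene of PPAR gamma, had 114, 240 and 123 in the controls and 241, 326, 236 and 222 in KA 1 to KA 4. For both the KA mean was 1.07-fold that of control 2, and the groups overlapped. Their log2 fold changes of 0.79 (SE 0.31, edgeR adjusted p = 0.0309) and 0.69 (SE 0.28, edgeR adjusted p = 0.0293) no longer passed with TMM factors (edgeR adjusted p = 0.0737 and 0.0755). Neither passed without control 1 (edgeR adjusted p = 0.112 and 0.122), without control 3 (0.107 and 0.113) or without KA 2 (0.0711 and 0.0864), and Awat2 also failed without KA 3 (0.0631).

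**Figure D2:**
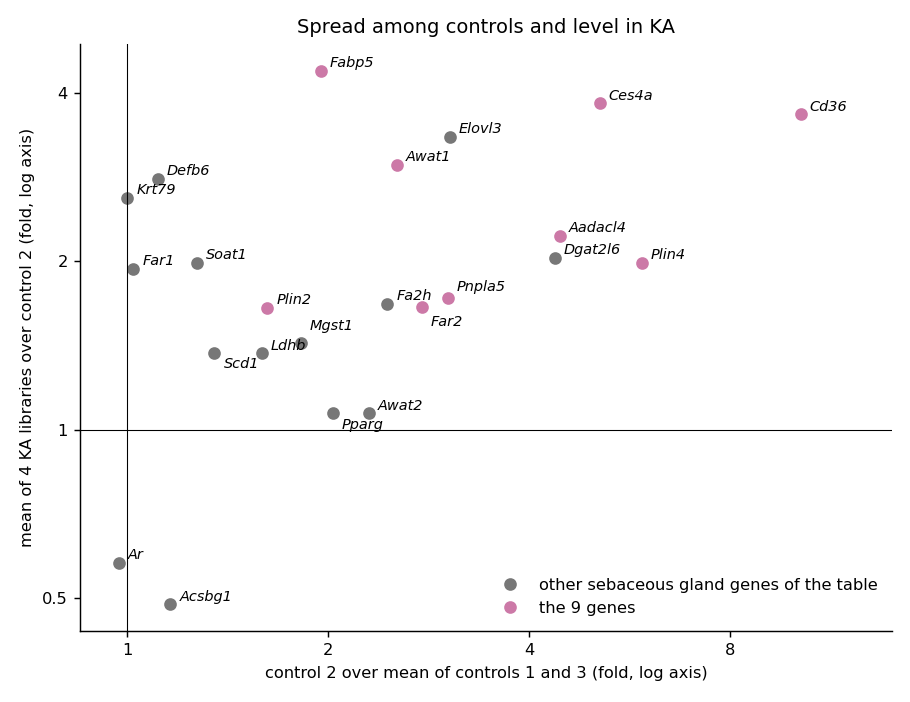
Each point is a gene, placed by the ratio of control 2 to the mean of controls 1 and 3 (horizontal, log axis) and by the mean of the 4 KA libraries over control 2 (vertical, log axis). The 9 genes lie between 1.62 and 10.2 horizontally and between 1.65 and 4.39 vertically, while Awat2 and Pparg, high in control 2, lie at 1.07 vertically and Krt79 and Defb6, at 0.999 and 1.11 horizontally, lie at 2.6 and 2.81.

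Dividing each gene by Awat2 in the same library, both per kilobase, gives its level relative to another gland transcript, and the outcome depended on the transcript chosen. Of the 14 other sebaceous genes listed, 5 were at least 2-fold higher in control 2 than in the female controls (Awat2, Pparg, Elovl3, Dgat2l6 and Fa2h). Awat2 and Pparg are those in which KA stood least above control 2 (1.07-fold), beside 3.34-fold for Elovl3, 2.03-fold for Dgat2l6 and 1.68-fold for Fa2h. The ratios to Awat2 are given first. For Awat1 this ratio was 1.33, 1.83 and 2.11 in the controls and 5.75, 4.54, 4.68 and 5.60 in KA 1 to KA 4. Control 2 lay between the female controls, and the KA mean was 2.93-fold the control mean. For Far2 and Pnpla5 control 2 was still the highest control, but by 1.19 and 1.28 times the mean of the female controls, with KA over control ratios of 1.76 and 1.90. For Cd36 the ratio to Awat2 was 0.0293, 0.178 and 0.0557 in the controls and 0.689, 0.676, 0.479 and 0.604 in KA 1 to KA 4. Control 2 thus stayed 4.20-fold above the female controls, and the same remained for Plin4 (2.44-fold), Ces4a (2.20-fold) and Aadacl4 (1.84-fold). The KA over control ratios of these 4 were 6.97, 3.28, 5.78 and 3.12. Fabp5 relative to Awat2 was not highest in control 2 (12.3, 12.7 and 18.7 in controls 1 to 3) and was 36.8 to 76.8 in KA, 3.68-fold higher. Plin2 was 4.94, 4.11 and 7.10 in the controls and 6.48, 6.64, 5.27 and 7.17 in KA, so its groups overlapped and the ratio of means was 1.19. All KA values lay above all controls in 8 of the 9 genes relative to Awat2 and in 9 relative to Pparg, where Plin2 had a ratio of means of 1.32. Relative to Fa2h the KA mean was above the control mean in 8 of the 9, with no overlap in 4 (Awat1, Cd36, Fabp5 and Ces4a). Relative to Dgat2l6 it was above in 4 and below in 5, with no overlap in 2 (Cd36 and Ces4a). Relative to Elovl3 it was above in 2 (Cd36 at 2.03 and Ces4a at 1.51) and below in 7, among them Awat1 (0.766), Pnpla5 (0.491) and Far2 (0.441). With Elovl3 all KA values lay above all controls in 0 of the 9. Ces4a relative to Elovl3 was 0.22, 0.236 and 0.0969 in controls 1 to 3 and as low as 0.231 in KA 3. For Cd36 control 2 and KA 3 were both at 0.0427. Cd36 and Ces4a were thus the only members with a ratio of means above 1 against each of the 5 references, though not free of overlap against each. All 5 were chosen after their values were seen, and no test was made of these ratios.

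**Figure D3:**
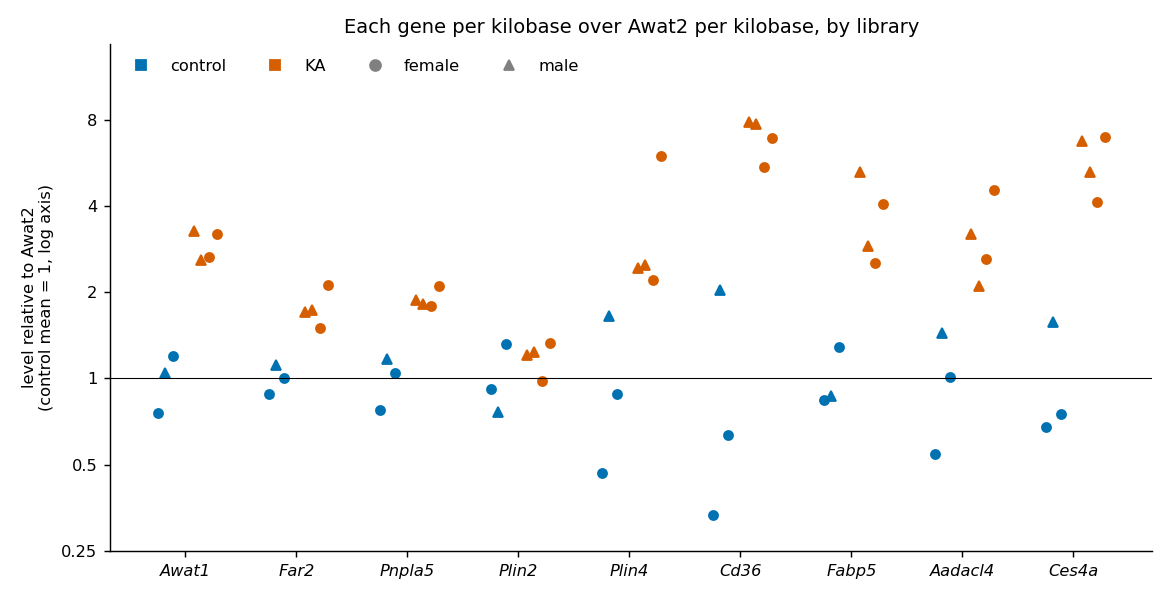
Level of each gene per kilobase over Awat2 per kilobase in each library, scaled to a control mean of 1 (log axis), with blue for control, orange for KA, triangles for males and circles for females. With this reference the groups overlap for Plin2 only, and the male control is the highest control for 6 of the 9 (Far2, Pnpla5, Plin4, Cd36, Aadacl4 and Ces4a).

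Within each sex the genes were higher in KA, and the fold was smaller in males for all 9. Among females (2 KA against 2 controls) the fold ran from 2.38 for Plin2 to 30.2 for Cd36, with 17.1 for Ces4a, 13.3 for Plin4, 10.5 for Aadacl4, 7.03 for Fabp5, 7.01 for Awat1, 4.94 for Pnpla5 and 4.30 for Far2. Among males (2 KA against 1 control) it ran from 1.72 for Plin4 to 5.18 for Fabp5, with 4.37 for Cd36, 4.32 for Ces4a, 3.18 for Awat1, 2.07 for Aadacl4, 1.83 for Plin2, 1.80 for Pnpla5 and 1.76 for Far2. Control 2 is the denominator of every male value, so the folds of the 9 genes within males share its level. Among the KA libraries, sex also coincides with the run of animal numbers. The product term of genotype and sex, which rests on the same library, was negative in all 9, with 0.0445% of the 6749 genes tested passing (3 genes, edgeR adjusted p under 0.05, 192 at an unadjusted p under 0.05). Aadacl4 at -2.34 (SE 0.34) and Ces4a at -1.98 (SE 0.29) were known from that result when the genes were picked. The other 7 are given as values only, since the term rests on control 2, whose level was known when the genes were picked. Among them were Plin4 at -2.94 (SE 0.56), Cd36 at -2.76 (SE 0.45), Pnpla5 at -1.45 (SE 0.30) and Plin2 at -0.38 (SE 0.28). The count of 3 genes became 0 in edgeR without control 1, control 3, KA 1 or KA 2 (103 to 320 at an unadjusted p under 0.05), 7 without KA 3 and 9 without KA 4.

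**Figure D4:**
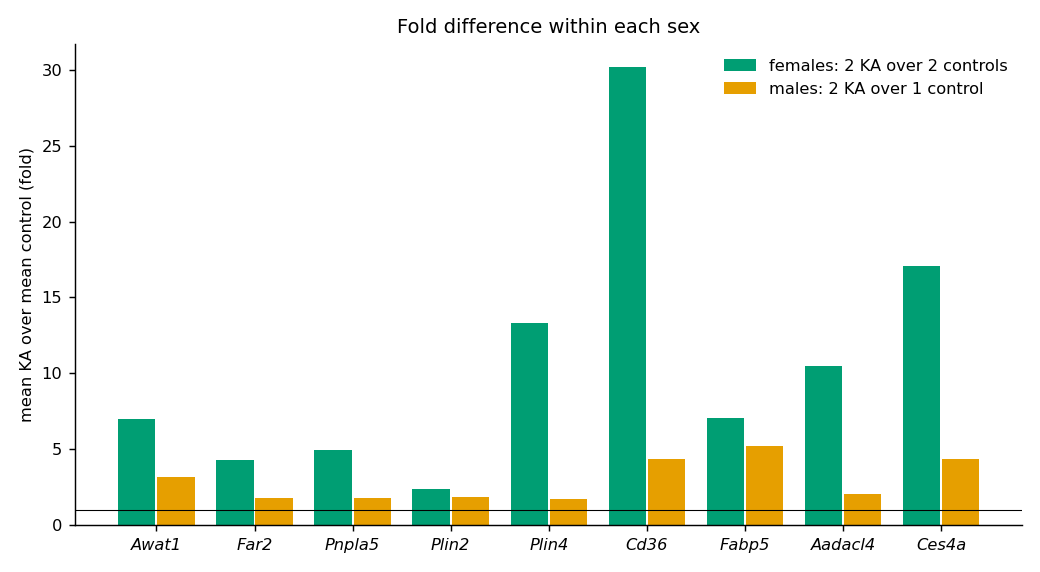
Mean normalised reads in KA over the mean in controls, within females (2 against 2 libraries) and within males (2 against 1), as bars from 0 with a line at 1. The female bars run from 2.38 to 30.2 and the male bars from 1.72 to 5.18, lower than the female bar for each gene.

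The genes nearest to each member were found by how libraries deviate from their group mean on the log2 scale, which leaves out the difference between groups. The measure was the root mean square distance over the 7 libraries, among 5819 other listed genes with a mean of at least 50 normalised reads. The 3 nearest to each member came to 17 genes. Cyp3a57, a cytochrome P450 gene, was among the nearest to 5 members (Far2, Pnpla5, Plin4, Aadacl4 and Ces4a), and the unprocessed pseudogene Gm12551 to 4 (Plin4, Cd36, Aadacl4 and Ces4a). Cyp3a57 had 37.9, 123 and 34.5 normalised reads in the controls and 139 to 165 in KA, so it was 3.39-fold higher in control 2 than in the female controls and its KA mean was 1.26-fold that of control 2. Gm12551, whose reads may be shared with a gene it copies, had 14.2, 60.8 and 10.4 in the controls and 201 to 278 in KA. Fa2h, the fatty acid hydroxylase, was near Awat1 and Pnpla5 (distances 0.135 and 0.146), and Tmem45b near Far2 and Pnpla5 (0.127 and 0.133). Acss2, an acetyl-CoA synthetase, was the nearest to Awat1 (0.121). Plin2 was nearest to Hsd17b12, an enzyme of fatty acid elongation, at 0.041, and Fabp5 to Slc16a1, a lactate transporter, at 0.074. The distances were widest for Plin4 and Cd36, whose nearest genes were at 0.436 and 0.392. Aldh1a1 and Ly6c1, also among the nearest (to Awat1 and Fabp5), were lower in KA, with log2 fold changes of -2.20 (SE 0.32, edgeR adjusted p = 0.000191) and -1.65 (SE 0.34, edgeR adjusted p = 0.00138).

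Other genes of the gland and of lipid handling were counted from lists that exclude the 9. In these counts 100% (6746 of 6749) of the listed genes tested passed, 52.7% as higher and 47.3% as lower, since the table was selected on the same comparison, so a count gives directions more than evidence. Of 26 sebaceous gland genes, 14 could be tested. KA was higher in 12 and lower in 2, and the median log2 fold change was 1.01. Krt79, a keratin of the gland duct and upper follicle, had a log2 fold change of 1.38 (SE 0.16, edgeR adjusted p = 5.13e-05) and the beta-defensin Defb6 1.58 (SE 0.18, edgeR adjusted p = 5.47e-05), with control 2 at 0.999 and 1.11 times the mean of the female controls. Krt79 was even among controls (coefficient of variation 3.42%), and Defb6 less so (18.9%), with control 1 the lowest. Scd1, which puts the double bond into stearoyl-CoA, differed by 0.73 (SE 0.16, edgeR adjusted p = 0.00227). Fa2h differed by 1.47 (SE 0.34, edgeR adjusted p = 0.00332), not passing in the lower run of animal numbers alone (edgeR adjusted p = 0.076), and stood 2.45-fold higher in control 2 than in the female controls. Elovl3, a fatty acid elongase named after its values were seen, had 258, 1105 and 468 normalised reads in the controls and 2606 to 4666 in KA. Dgat2l6, of the same enzyme family as Awat1 and also named afterwards, had 44.5, 139 and 19.2 in the controls and 255 to 343 in KA. Acsbg1, an acyl-CoA synthetase named for being lower, differed by -0.90 (SE 0.23, edgeR adjusted p = 0.00501). In 11 of the 14 control 2 was the highest control, and in 5 it was at least 2-fold above the female controls.

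For droplet coat and turnover 11 of 25 genes were tested, and KA was higher in 8 and lower in 3 (median 0.53). Mgll, the monoglyceride lipase, differed by 1.77 (SE 0.23, edgeR adjusted p = 0.000121) and Lpl, lipoprotein lipase, named after its values were seen, by 1.77 (SE 0.24, edgeR adjusted p = 0.00015), while Pnpla3 and Hsd17b13, both droplet proteins and named for being lower, differed by -1.07 (SE 0.25, edgeR adjusted p = 0.00258) and -1.80 (SE 0.34, edgeR adjusted p = 0.000851). For fatty acid uptake and activation 10 of 19 were tested, 7 of them higher and 3 lower (median 0.90). Slc27a4, a fatty acid transport protein, differed by 1.10 (SE 0.19, edgeR adjusted p = 0.000561) and Acsl1, an acyl-CoA synthetase, by -0.85 (SE 0.19, edgeR adjusted p = 0.00235). For synthesis of fatty acids, triglyceride and wax 19 of 34 were tested, 16 of them higher and 3 lower (median 0.79). Elovl4, an elongase of very long chains, differed by 1.18 (SE 0.25, edgeR adjusted p = 0.00181). The 3 lower genes were Dgat2 at -0.59 (SE 0.14, edgeR adjusted p = 0.00313), Me1 at -0.77 (SE 0.13, edgeR adjusted p = 0.000457) and Gpam at -0.57 (SE 0.16, edgeR adjusted p = 0.0071). For fatty acid oxidation 11 of 22 were tested, 10 of them higher and 1 lower (median 0.56). The lower gene, Pdk4, did not pass without control 1, control 3, KA 1, KA 2 or KA 4. Acadl, a long-chain acyl-CoA dehydrogenase, differed by 1.26 (SE 0.15, edgeR adjusted p = 6.5e-05). For the carboxylesterase and deacetylase families 6 of 22 were listed and 5 tested, 4 of them higher and 1 lower (0 without control 1). Aadac, a relative of Aadacl4, had 1133, 1447 and 1230 normalised reads in the controls and 2120 to 2955 in KA, and its ratio of control 2 to the female controls was 1.22 where that of Aadacl4 was 4.45. Among regulators 15 of 23 were tested, 11 of them higher and 4 lower (2 lower without control 1), with a median of 0.51. Ppard, the gene of PPAR delta, named after its values were seen, had 804, 690 and 824 in the controls and 1773 to 2602 in KA, with all KA above all controls, whereas Srebf1, a regulator of fatty acid synthesis, fell by 0.43 on the log2 scale (SE 0.11, edgeR adjusted p = 0.00538).

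Markers of other cells that can make these transcripts were counted too. Of 14 macrophage and monocyte markers 8 were in the table, 6 higher and 2 lower in KA, and their summed normalised reads were 842 to 1203 in controls and 1880 to 2275 in KA. C1qa had a log2 fold change of 2.24 (SE 0.30, edgeR adjusted p = 0.000124) and Csf1r 0.97 (SE 0.17, edgeR adjusted p = 0.000638), while Adgre1 and Cd68 were lower, at -1.42 (SE 0.26, edgeR adjusted p = 0.000665) and -0.65 (SE 0.21, edgeR adjusted p = 0.0137). Cd68 did not pass without control 1 (edgeR adjusted p = 0.0545). The sum was lowest in control 2 (842), where Csf1r alone had 500. The single markers differed: C1qa had 40.7, 61.9 and 89.8 in controls 1 to 3, and 1 of the 8 was highest in control 2. Of 10 adipocyte markers Cidec and Lipe were in the table, both higher, summing to 140, 168 and 217 in controls 1 to 3 and to 244 to 332 in KA, Lipe not passing without control 1 (edgeR adjusted p = 0.0592). Most of this sum was Lipe, with 138, 159 and 213 in controls 1 to 3. Cidec had 1.89, 9.28 and 4.01 there, from 2, 9 and 5 counts, and 15.6 to 41.5 in KA. Control 2 was 3.14 times the mean of the female controls for Cidec and 0.903 times for Lipe. Adipoq, Plin1 and Lep were not analysed here. Of 10 endothelial markers Pecam1 and Flt1 were in the table, both higher, summing to 16.1, 16.5 and 33.7 in controls 1 to 3 and to 63.7 to 111 in KA. The 7 keratinocyte markers of 12 that were in the table, 6 higher and 1 lower, summed to 586500 to 681000 in controls and 1157000 to 1295000 in KA. The part of these cells in the level of Cd36, Plin2, Plin4 or Fabp5, in KA or in control 2, was not tested.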

How the data were processed

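RNA from epidermis of 4 KA and 3 control mice was sequenced. Per the submitters' processing notes the tools were fastp, STAR 2.6.1d, featureCounts 1.5.0-p3 and DESeq2 1.40.2 with mm10, and strand setting and annotation are not given in the sources used here. Per the file headers the table holds the authors' raw read counts per gene, normalised reads (a signal scale, on which the values are each count divided by 1 size factor per library), and the authors' log2 fold change, score and p-values. All 7091 listed genes have an adjusted p of the authors under 0.05 (largest 0.04995), so every test here is conditional on that selection. No column of another sample was present (0).

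Counts were fitted with edgeR 4.0.16 in R 4.3.3 (glmQLFit and glmQLFTest, robust, the authors' size factors, filterByExpr, which kept 6749 genes, Benjamini-Hochberg adjustment, threshold 0.05). Each standard error was taken as the fitted log2 fold change divided by the root of its F. A second fit added sex and its product with genotype. Lists and members were chosen with earlier results of these data known. Genes named were the 9 members, the 4 most abundant of each list (all, where 5 or fewer were listed), the 3 nearest to each member, and 7 others chosen after their values were seen. Others of a list are named to identify those that were lower. Distances used log2(normalised reads + 1). Positions of all 9 members matched GENCODE M21 on GRCm38. The fits were tested on simulated data. DESeq2 1.42.0 and limma 3.58.1 (voom) were alternatives, with other scaling, filters, covariates and samples. The values of a listed gene are not reported here.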

Additional observations from a re-analysis of the deposited data

Results flagged for a closer look

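The product term of genotype and sex passed in edgeR for Aadacl4 (-2.34, edgeR adjusted p = 0.0384) and Ces4a (-1.98, edgeR adjusted p = 0.0384), but no gene passed with limma-voom (179 at an unadjusted p under 0.05), with a term for the run of animal numbers (226), or in edgeR without control 1, control 3, KA 1 or KA 2 (103 to 320). The male group has a single control, control 2, which held 348 counts of Aadacl4 against 73 and 115 in the female controls, and 412 of Ces4a against 98 and 92. Sex and that animal cannot be told apart, and both genes were picked with this comparison and the high level in control 2 known, so the term is no evidence of a difference between the sexes.

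The 4 KA values of each of the 71 named genes were checked for 1 library lying apart, using Dixon's ratio (the gap to the nearest library divided by the range) at its 95% limit. In 2 genes the ratio passed, where chance gives about 1 in 20 genes (3.55 here). The ratio was 0.854 for Scd1, highest in KA 2 (43200 normalised reads against 33920 to 35280), and 0.978 for Me1, highest in KA 3 (5105 against 4141 to 4162). None of the 9 members passed.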

How the results depend on the processing

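The log2 fold changes of all 9 members stayed above 0 under every alternative fit. Their lowest and highest log2 fold changes over the alternatives were 1.80 and 3.39 for Aadacl4, 2.08 and 2.91 for Awat1, 2.76 and 5.20 for Cd36, 2.66 and 4.29 for Ces4a, 2.49 and 3.10 for Fabp5, 1.25 and 2.20 for Far2, 0.97 and 1.42 for Plin2, 1.59 and 3.72 for Plin4, and 1.36 and 2.38 for Pnpla5. The highest came without control 2 or in females alone, which also leaves out control 2. TMM and RLE factors made from the listed genes moved the log2 fold changes of all genes by medians of -0.138 and -0.173 relative to the authors' size factors, and values are to be read with that shift. In the upper run of animal numbers (control 3, KA 3 and KA 4) both KA libraries were above the control in all 9. The share over all genes is not given for this run. Over all 7 libraries, all KA lay above all controls in 49.1% of the 6749 genes tested. As the 9 were picked for being higher in KA, this count describes the choice. Whether the runs of animal numbers mark batches is not given.

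Over all listed genes 6746 passed and 4081 passed among females alone, a fit with fewer samples. Leaving out 1 library at a time gave 6028 to 6649. With the replicate block, on samples 1 to 3, 6069 passed. Correlations of deviations between libraries with the same sample number were -0.194, 0.133 and -0.0968. Those between libraries with unlike numbers ran from -0.199 to 0.188. These values cannot settle whether the libraries were paired. The block left out KA 4, whose title carries the same letter, C, as those of control 3 and KA 3. The meaning of these letters is not given. The count of 3 genes passing for the product term of genotype and sex became 6 with DESeq2. It became 0 with limma-voom (179 at an unadjusted p under 0.05, where edgeR had 192). It was also 0 when a term for the run of animal numbers was added (226). Leaving out 1 library at a time gave 0 to 9. It was 0 without control 1, control 3, KA 1 or KA 2 (228, 177, 103 and 320 unadjusted), 7 without KA 3 and 9 without KA 4. The cause was not tested. No model without control 2 was possible for this term. Ratios to a gland gene, all above 1 with Awat2 or Pparg, fell below 1 with other references, added after seeing the data. With Elovl3 they were 0.766 for Awat1, 0.441 for Far2, 0.491 for Pnpla5, 0.296 for Plin2, 0.944 for Plin4, 0.928 for Fabp5 and 0.875 for Aadacl4. With Dgat2l6 they were 0.855 for Awat1, 0.544 for Far2, 0.587 for Pnpla5, 0.334 for Plin2 and 0.96 for Aadacl4, and with Fa2h 0.742 for Plin2. Control 2 was the highest control in all 9 members also when counts were scaled to the total of listed reads. Ratios that rest on few reads, such as Cd36 with 10 and 16 counts in the female controls, are the least precise.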
